A study of Mus musculus with 9 samples.

Results

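The genes examined encode the enzymes that methylate lysine 4 of histone H3 (H3K4) and the subunits those enzymes share. They are Kmt2a, Kmt2b, Kmt2c, Kmt2d, Setd1a, Setd1b, Men1, Ash2l, Wdr5 and Rbbp5. They were chosen by symbol from a table of 46078 genes, where these 10 symbols have 11 rows, because Men1 is listed under a second identifier (ENSMUSG00000106695) with 0 counts in every library. All 10 genes passed the filter on low counts and are among the 15401 genes tested. Transcript 3′ ends had been sequenced in 6 T cell lymphomas induced by MYCN, a transcription factor of the MYC family, and collected from the thymus. The controls were 3 preparations of CD4+ T cells from the spleen. Mice of both groups were of the C57BL/6J strain. The age of the mice, the promoter driving MYCN and whether the lymphomas arose independently are not given in the sources used here. Libraries carry the numbers in their labels, which are 34, 53, 56, 70, 72 and 86 for lymphoma and 1, 2 and 3 for CD4. The p-values measure the spread between these libraries. Whether the CD4 preparations came from separate mice is not given either, so that spread may be technical.

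Methylation of H3K4 marks active promoters and enhancers, and it is a mark that stands opposite to the repressive methylation placed by EZH2, the enzyme named in the title of the series. The enzymes fall into paralogous pairs. KMT2A and KMT2B act with menin (Men1) at promoters, KMT2C and KMT2D methylate enhancers, and SETD1A and SETD1B place much of the trimethyl mark at active promoters. Each enzyme needs a common core of WDR5, RBBP5, ASH2L and DPY30 for full activity. WDR5 is also known to bind MYC proteins directly. Rearranged KMT2A drives acute leukaemias, and KMT2C and KMT2D are often mutated in lymphomas.

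RefSeq promoter windows (GRCm38.p6), running from 250 bases before to 50 bases after a gene's start, were on hand for 7 of the genes, as 9 windows. The 250 upstream bases are printed for the called genes whose upstream stretch holds no exon annotated in GENCODE M21, so that the CpG content of genes that fell (Kmt2c and Kmt2d) and of a gene that rose (Wdr5) can be read side by side. Capitals mark CpG dinucleotides, and each sequence runs 5′ to 3′ on the strand of its gene. The Kmt2c stretch lies on the minus strand of chromosome 5 from 25498784 to 25499033, that of Kmt2d on the minus strand of chromosome 15 from 98871206 to 98871455, and that of Wdr5 on the plus strand of chromosome 2 from 27514897 to 27515146.
Kmt2c: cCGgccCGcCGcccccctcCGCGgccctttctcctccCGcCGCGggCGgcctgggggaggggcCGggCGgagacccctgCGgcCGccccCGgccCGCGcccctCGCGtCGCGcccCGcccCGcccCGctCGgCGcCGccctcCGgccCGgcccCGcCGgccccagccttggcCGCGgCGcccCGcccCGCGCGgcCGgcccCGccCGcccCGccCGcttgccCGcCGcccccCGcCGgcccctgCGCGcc
Kmt2d: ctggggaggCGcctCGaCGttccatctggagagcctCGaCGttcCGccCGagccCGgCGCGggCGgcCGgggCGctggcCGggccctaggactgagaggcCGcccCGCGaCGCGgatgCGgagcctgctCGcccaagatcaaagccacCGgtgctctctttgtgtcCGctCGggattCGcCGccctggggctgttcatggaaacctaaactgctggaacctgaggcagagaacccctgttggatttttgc
Wdr5: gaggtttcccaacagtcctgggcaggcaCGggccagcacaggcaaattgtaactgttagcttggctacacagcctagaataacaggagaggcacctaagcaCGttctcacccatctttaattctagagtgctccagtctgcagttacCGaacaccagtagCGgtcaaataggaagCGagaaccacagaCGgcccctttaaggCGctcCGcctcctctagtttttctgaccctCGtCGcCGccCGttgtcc

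The whole 300-base windows held 56 CpGs for Kmt2c, 27 for Kmt2d and 22 for Wdr5, against a median of 7 over all 32851 promoter windows. The other windows held 36 CpGs for Kmt2a, 35 for Setd1a, 16 for Rbbp5 and 11 to 16 for the starts of Men1. The canonical E-box read by MYC proteins, CACGTG, which is its own reverse complement, occurred in 0 of the 9 windows and in 7.15% of all promoter windows. This says only that these letters are not in these windows.

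As a share of scaled library counts, RNA of the 4 KMT2 enzymes was lower in the lymphomas. That of the core subunits Ash2l and Wdr5 and of the enzyme Setd1a was higher. The calls of Kmt2c and Kmt2d were less stable, each being lost in 4 of 19 alternative fits. With p-values from the edgeR quasi-likelihood model, adjusted by the Benjamini-Hochberg method over all tested genes, and a threshold of 0.05, 3 of the 10 genes were higher in lymphoma and 4 were lower. Among all tested genes 24.7% were higher, 21.9% lower and 46.6% changed in either direction, so calls of this kind are common in this comparison, and the 7 calls among 10 members are read against that share. Both groups were fully separated, in the sense that no lymphoma overlapped any CD4 library, at 6 of the 10 genes and at 44.9% of all tested genes. The median log2 fold change was -0.04 over the 10 genes and 0.04 over all tested genes. Over the 6 enzymes the median was -0.90, and over the core subunits Wdr5, Ash2l and Rbbp5 it was 1.38. With upper quartile scaling the median of all genes moved from 0.04 to -0.06, and no member changed its sign under any of the 3 other scalings. Levels are in CPM, which is counts per 1000000 after library totals were scaled by TMM, and they are compared between groups for 1 gene at a time.

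**Figure D1:**
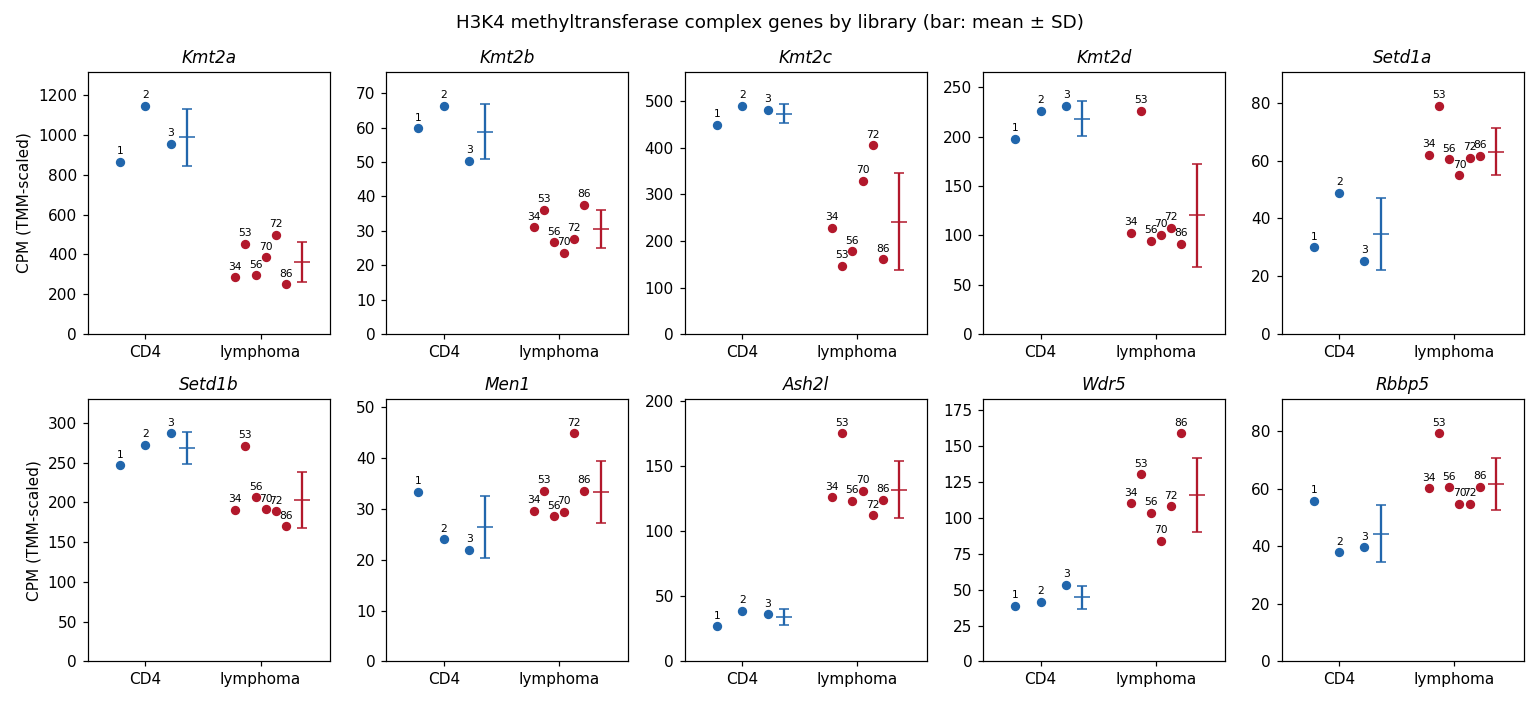
CPM of each gene (vertical axis, from 0, a separate scale in each panel) in the 3 CD4 libraries (blue) and the 6 lymphomas (red), each point labelled with its library number and each bar giving the mean ± SD of a group. Kmt2a, Kmt2b and Kmt2c lie lower in every lymphoma than in every CD4 library, Ash2l, Wdr5 and Setd1a lie higher, and lymphoma 53 stands apart in Kmt2d at 226 CPM.

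Gene counts per library ranged from 11170704 to 15769679 in lymphoma and from 8099960 to 10808828 in CD4, and the members held 200 to 10410 counts in a library. T cell markers were present in both groups, with the 13 listed genes summing to 2316 to 4426 CPM in lymphoma and 3265 to 3414 CPM in CD4. Cd4 itself had 199 to 263 CPM in the CD4 libraries and 6.04 to 71.9 CPM in the lymphomas. The CD4 libraries also held RNA of the CD8 chains, with 25.6 to 31.8 CPM of Cd8a and 35.9 to 44.9 CPM of Cd8b1. Lymphoma 53 held 29.4 and 47.6 CPM of these genes, and the other lymphomas at most 1.53 and 0.735 CPM. The CD4 libraries also carried B cell RNA: all 12 listed B cell markers, Ms4a1 and Pax5 among them, were lower in lymphoma, and their sum was 1516 to 1862 CPM in CD4 against 9.95 to 16.6 CPM in lymphoma. Myeloid markers summed to 614 to 728 CPM in CD4 and 86.2 to 2220 CPM in lymphoma, with 4 of 13 lower and 9 not called. The highest sum was that of lymphoma 56, where S100a8 held 1035 CPM and S100a9 989 CPM. The genes called lower, Csf1r, Itgam, Adgre1 and Mpeg1, lay lower in every lymphoma than in every CD4 library. Erythroid markers summed to 70.7 to 244 CPM in CD4 and 18.8 to 648 CPM in lymphoma, with 1 of 6 tested higher. The 14 stromal, endothelial and thymic epithelial markers summed to 221 to 241 CPM in CD4 and 97.8 to 181 CPM in lymphoma, and of the 7 tested 2 were higher and 2 lower. Dcn, Krt5, Krt8 and Foxn1 had 0 counts in every CD4 library, Cdh5 had 0 counts in every lymphoma, and Pecam1 averaged 193 CPM in CD4 and 64.5 CPM in lymphoma. All 16 proliferation genes rose, from a summed 445 to 577 CPM in CD4 to 3656 to 5300 CPM in lymphoma. In 3 lymphomas the same T cell receptor segment, Trbv12-1, held most Trbv counts (66 of 84 in lymphoma 34, 45 of 73 in lymphoma 70 and 47 of 87 in lymphoma 72), and lymphomas 56 and 86 had 0 Trbv counts. Shared origin of these tumours was not tested, and alternative fits averaged 34, 70 and 72 into 1 library. The part of B cell RNA and of proliferation in the differences below was not tested. Thymus or spleen, tumour or control, and sex, as read from the Y-linked Kdm5d, cannot be told apart from the group, and in bulk RNA fewer cells of a type and less RNA per cell cannot be told apart either.

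Kmt2a (ENSMUSG00000002028, chromosome 9, 44803355 to 44881296, minus strand) encodes the founding enzyme of the family, which keeps Hox and other developmental genes active. Its level was 864, 1145 and 955 CPM in CD4 1, 2 and 3, and in lymphoma it ran from 249.3 CPM (lymphoma 86) through a median of 340 CPM to 499 CPM (lymphoma 72). Every lymphoma thus lay below every CD4 library. The log2 fold change was -1.45 (SE 0.218), a 2.73-fold lower level, with an edgeR adjusted p of 0.00022. Its paralogue Kmt2b (ENSMUSG00000006307, chromosome 7, 30568858 to 30588726, minus strand) stood at 59.8, 66.2 and 50.3 CPM in CD4. The lymphomas ranged from 23.6 CPM through a median of 29.4 to 37.6 CPM, again without overlap. Kmt2b fell by 0.95 on the log2 scale (SE 0.186, edgeR adjusted p 0.00141). Both genes kept their call under all 19 alternative fits.

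Kmt2c (ENSMUSG00000038056, chromosome 5, 25271798 to 25498783, minus strand) encodes an enzyme of enhancers. It stood at 450, 489 and 481 CPM in CD4, and from 147 CPM (lymphoma 53) through a median of 203 to 405 CPM (lymphoma 72) in the tumours. The CD4 libraries were close to each other, and the lymphomas spread 2.76-fold from lowest to highest, with 70 and 72 nearest to CD4. The log2 fold change was -0.97 (SE 0.295, edgeR adjusted p 0.018). This call was lost when any 1 CD4 library was left out (adjusted p 0.0558 without CD4 1, 0.0622 without CD4 2 and 0.0582 without CD4 3) and when the trend of counts with GC content and transcript length was removed (-0.42, adjusted p 0.226).

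The partner enzyme at enhancers, Kmt2d (ENSMUSG00000048154, chromosome 15, 98831669 to 98871204, minus strand), had 198, 226 and 231 CPM in CD4. Its lowest lymphoma held 91.8 CPM, the median was 102 CPM, and the highest, lymphoma 53, held 226 CPM. The groups overlapped through lymphoma 53 alone, since the other 5 lymphomas lay between 91.8 and 108 CPM. Kmt2d fell by 0.86 on the log2 scale (SE 0.269, edgeR adjusted p 0.0208), and without lymphoma 53 by 1.14 (adjusted p 1.02e-05). The call was lost without CD4 2 (adjusted p 0.0671), without CD4 3 (0.0708) and when lymphomas 34, 70 and 72 were averaged into 1 library (0.0802).

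Of the SETD1 enzymes, Setd1a was called higher and Setd1b was not called. Setd1a (ENSMUSG00000042308, chromosome 7, 127776670 to 127800122, plus strand) had 30.0, 48.8 and 25.3 CPM in CD4 and 54.9 to 78.8 CPM in lymphoma, with a median of 61.3 CPM. All lymphomas exceeded all CD4 libraries, and the lymphomas other than 53 lay within 54.9 to 61.9 CPM. Setd1a rose by 0.86 on the log2 scale (SE 0.221, 1.82-fold, edgeR adjusted p 0.0072) and kept its call under all 19 alternative fits. Setd1b (ENSMUSG00000038384, chromosome 5, 123142193 to 123168629, plus strand) had 247, 272 and 287 CPM in CD4 and 170 to 271 CPM in lymphoma, with a median of 191 CPM. Its groups overlapped through lymphoma 53. The log2 fold change of -0.40 (SE 0.163) missed the threshold (edgeR adjusted p 0.0605), and it passed in 8 of 19 alternatives, among them the 3 other scalings and the fit without lymphoma 53 (-0.51, adjusted p 0.00323).

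Menin, the product of Men1 (ENSMUSG00000024947, chromosome 19, 6334979 to 6340891, plus strand), tethers KMT2A and KMT2B to chromatin. Its level was 33.4, 24.0 and 22.02 CPM in CD4 and 28.6 to 44.9 CPM in lymphoma, with a median of 31.6 CPM. CD4 1 lay among the lymphomas. The log2 fold change was 0.33 (SE 0.214, edgeR adjusted p 0.23), so no difference beyond the spread between libraries was detected, and with the GC and length trend removed it was -0.01.

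Of the 3 listed core subunits, Ash2l and Wdr5 rose and Rbbp5 did not pass the threshold. Ash2l (ENSMUSG00000031575, chromosome 8, 25815996 to 25847694, minus strand), whose product stimulates methylation together with RBBP5, had 27.0, 38.6 and 36.1 CPM in CD4. In lymphoma it ran from 112 CPM through a median of 125 to 175 CPM, the highest value being that of lymphoma 53. The lowest lymphoma therefore stood far above the highest CD4 library. Ash2l rose by 1.96 on the log2 scale (SE 0.201, 3.89-fold) with an edgeR adjusted p of 1.41e-05.

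Wdr5 (ENSMUSG00000026917, chromosome 2, 27515157 to 27536535, plus strand) encodes the adaptor that holds the enzyme to the core. It had 38.7, 41.5 and 53.4 CPM in CD4 and 84.1 CPM (lymphoma 70) to 159 CPM (lymphoma 86) in the tumours, with a median of 109 CPM. Its groups did not overlap. The rise was 1.38 on the log2 scale (SE 0.22, 2.6-fold, edgeR adjusted p 0.000341), and like that of Ash2l it was called under all 19 alternatives. Rbbp5 (ENSMUSG00000026439, chromosome 1, 132477365 to 132505659, plus strand), the third listed core subunit, had 55.8, 37.9 and 39.7 CPM in CD4 and 54.8 to 79.4 CPM in lymphoma, with a median of 60.4 CPM. CD4 1 overlapped the 2 lowest lymphomas, 70 and 72. The log2 fold change of 0.47 (SE 0.188) missed the threshold (edgeR adjusted p 0.0575), and it passed without CD4 1 (0.68, adjusted p 0.0159), without lymphoma 70 (adjusted p 0.0444) and with the GC and length trend removed (adjusted p 0.0374).

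**Figure D2:**
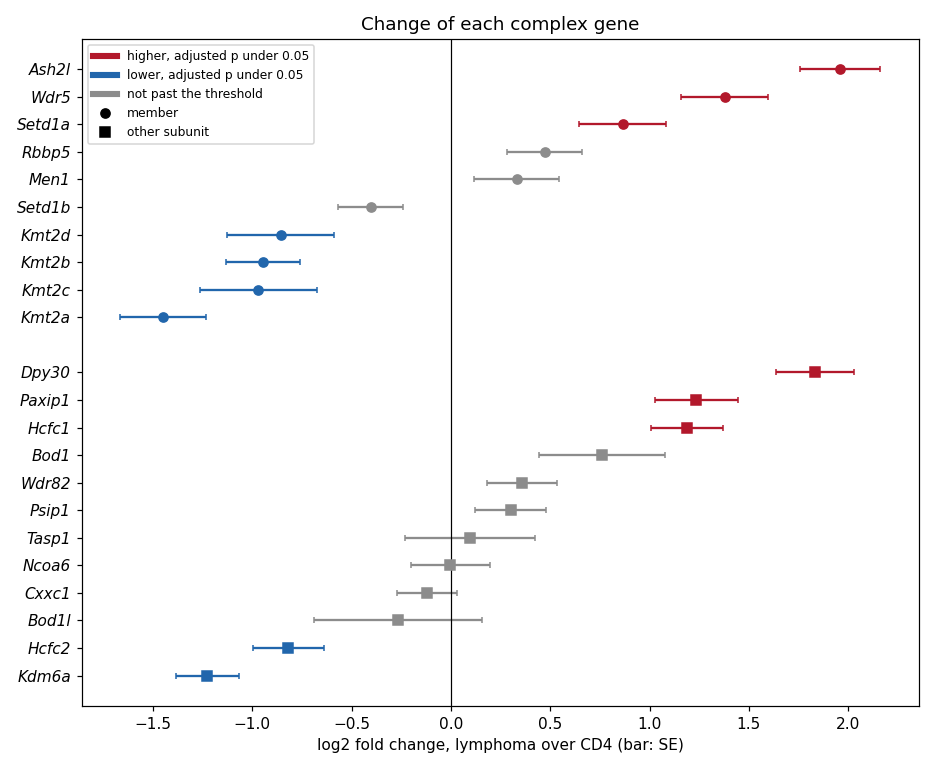
Log2 fold change of lymphoma over CD4 (horizontal axis) with its SE for the 10 members (circles) and for 12 tested subunits of the same complexes that are not members (squares), coloured by edgeR call at an adjusted p of 0.05. The KMT2 enzymes lie to the left between -1.45 and -0.86, while Ash2l, Wdr5 and the remaining core subunit Dpy30 lie to the right between 1.38 and 1.96.

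In GENCODE M21 an exon of another gene overlaps exons of Kmt2a, Kmt2c and Setd1a, on the opposite strand for Kmt2a and Kmt2c and on both strands for Setd1a. The strand setting of the counting is not given in the sources used here. Whether reads on these overlaps were counted for these 3 genes or set aside as ambiguous is therefore not known. Whether the overlaps lie near the sequenced 3′ ends was not examined.

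Paralogues were next compared within a library, as the log2 ratio of their counts, which does not depend on library scaling. The ratio of Setd1a to Setd1b was -3.04, -2.48 and -3.50 in CD4 1, 2 and 3 and lay between -1.80 and -1.46 in the lymphomas, without overlap. It was higher in lymphoma by 1.33 (two-sided exact permutation p = 0.0238, which groups of 6 and 3 cannot go below). Adjusted over the 3 pairs the p was 0.0714. Given the p-values of the other pairs below, it could not have been smaller. The adjusted p therefore cannot decide whether this pair differed in response. For Kmt2a over Kmt2b the ratio was 3.85, 4.11 and 4.25 in CD4 and 2.73 to 4.17 in lymphoma, with 70 and 72 among the CD4 values. The difference was -0.53 (exact permutation p = 0.143, adjusted 0.214). For Kmt2c over Kmt2d the CD4 ratios were 1.18, 1.11 and 1.06, and the lymphomas ran from -0.62 in lymphoma 53 to 1.91 in lymphoma 72, on both sides of CD4. The difference of means was -0.14 (exact permutation p = 0.929, adjusted 0.929), and 0.18 without lymphoma 53.

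**Figure D3:**
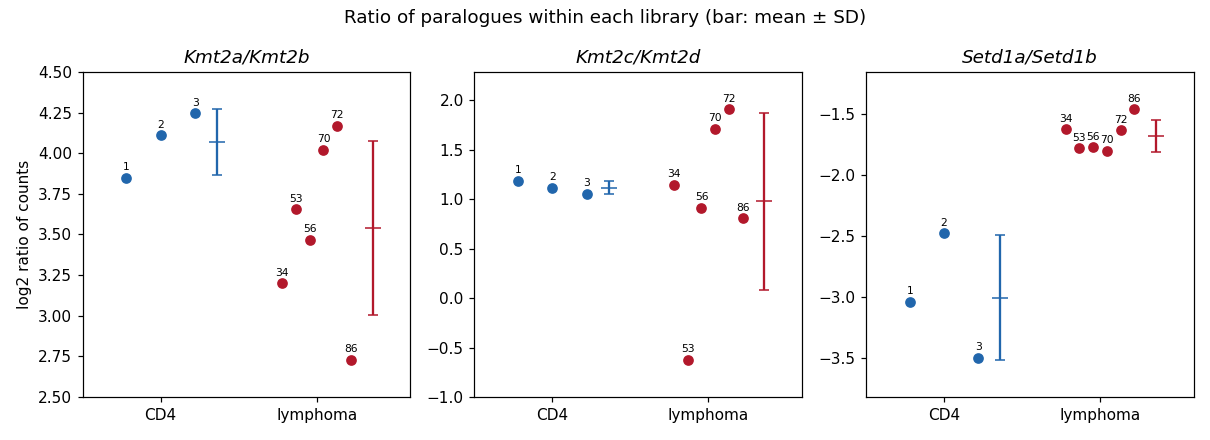
Log2 ratio of counts of 2 paralogues (vertical axis, a separate scale in each panel) in each CD4 library (blue) and lymphoma (red), labelled by library number, with bars for the mean ± SD. Setd1a over Setd1b separates the groups, with no lymphoma under -1.80 and no CD4 library above -2.48, while Kmt2c over Kmt2d spans -0.62 to 1.91 within lymphoma.

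The members also differed in how much they varied between tumours. The SD of log2 CPM over the 6 lymphomas was 0.59 for Kmt2c, 0.49 for Kmt2d and 0.40 for Kmt2a, against a median of 0.47 over all tested genes. It was smallest for Setd1a at 0.17 and Rbbp5 at 0.19, and 92.8% and 89.9% of tested genes varied more than these 2 genes did. The tested genes include genes of low counts, and the part of count level in these shares was not tested. Over the CD4 libraries the SD was 0.49 for Setd1a and 0.30 for Rbbp5, against a median of 0.36 over all tested genes. Lymphoma 53 was the highest of the 6 for Kmt2d, Setd1a, Setd1b, Ash2l and Rbbp5 and the lowest for Kmt2c. Without it the SD was 0.094 for Kmt2d, 0.082 for Ash2l and 0.072 for Setd1a, while it was 0.57 for Kmt2c and 0.40 for Kmt2a. Lymphoma 72 was the highest for Kmt2a, Kmt2c and Men1, and lymphoma 86 for Wdr5 and Kmt2b.

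Of 13 further subunits of these complexes, 12 were tested, 3 rose and 2 fell, so 5 of 12 were called, a share near the 46.6% of all tested genes. Pagr1a had 0 counts in every library. Dpy30, the remaining core subunit, rose by 1.83 on the log2 scale (SE 0.196, edgeR adjusted p 1.88e-05), from 37.1, 26.6 and 31.0 CPM in CD4 to 92.5 to 143 CPM in lymphoma. Its groups did not overlap. Hcfc1, a chromatin adaptor of the SETD1, KMT2A and KMT2B complexes, rose by 1.19 (SE 0.18, adjusted p 0.000236), with 84.2 ± 3.69 CPM (SD, n = 3) in CD4 and 192 ± 35.7 CPM (SD, n = 6) in lymphoma. Its relative Hcfc2 fell by 0.82 (SE 0.177, adjusted p 0.00261), from 44.1 ± 4.82 to 25.0 ± 3.62 CPM.

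Subunits particular to the KMT2C and KMT2D complexes moved in different directions. Paxip1, whose product PTIP is one of them, rose by 1.24 (SE 0.21, edgeR adjusted p 0.000542), with 23.8 ± 4.09 CPM (SD, n = 3) in CD4 and 55.9 ± 10.6 CPM (SD, n = 6) in lymphoma. Kdm6a, the H3K27 demethylase UTX of the same complexes, fell by 1.23 (SE 0.161, edgeR adjusted p 8.16e-05), from 110, 121 and 127 CPM in CD4 1, 2 and 3 to 38.4 to 59.8 CPM in lymphoma. Kdm6a is X-linked and known to escape X inactivation, and the Y-linked Kdm5d described below was found in the lymphomas. The part of sex in the change of Kdm6a or of any other subunit was not tested, and sex cannot be told apart from the group. Ncoa6, a coactivator in these complexes, stood at 50.1 CPM on average in lymphoma and 50.2 CPM in CD4 (edgeR adjusted p 0.989). The SETD1 subunits Cxxc1, which binds unmethylated CpG, and Wdr82 had changes of -0.12 (adjusted p 0.543) and 0.36 (adjusted p 0.115). Psip1, the chromatin tether LEDGF that joins menin and KMT2A, stood at 0.30 (adjusted p 0.189). Bod1 at 0.76, its relative Bod1l at -0.27 and Tasp1, the protease that cleaves KMT2A, at 0.10 did not pass either (edgeR adjusted p 0.0667, 0.639 and 0.837). Bod1l ran from 102 to 678 CPM between lymphomas. Without lymphoma 53 the number of further subunits that rose was 5, with Wdr82 (0.42, adjusted p 0.0305) and Psip1 (0.38, adjusted p 0.0319) added.

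Other genes around the mark were counted by list, to be read beside the 24.7% higher and 21.9% lower among all tested genes. Of 7 further SET domain genes 6 were tested, 1 rose and 3 fell. Smyd3, a methyltransferase reported on several substrates, rose by 1.57 on the log2 scale (SE 0.227, edgeR adjusted p 0.000168), and Prdm9, the H3K4 methyltransferase that places meiotic recombination sites, fell by 3.07 (SE 0.493, adjusted p 0.000359) at low levels. Prdm9 had 13.1 ± 3.72 CPM (SD) in the 3 CD4 libraries and 1.54 ± 0.876 CPM (SD) in the 6 lymphomas. Of 9 H3K4 demethylases and CoREST subunits all were tested, 3 rose and 2 fell. The part of sex in these calls was not tested, and sex cannot be told apart from the group. Kdm5d, a Y-linked demethylase, had 36.3 to 52.5 CPM in lymphoma and at most 3 counts in a CD4 library, which makes it at least 122-fold higher against the floor of 3 counts per library, which is at most 0.359 CPM in CD4. The CoREST subunit Rcor3 fell by 1.11 (SE 0.243, adjusted p 0.00276).

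Among 14 listed readers of H3K4 methylation 13 were in the table under the listed symbol and tested, 0 rose and 5 fell. The X-linked Phf8, a histone demethylase that docks on the trimethyl mark, had the largest fall at 0.89 (SE 0.174, edgeR adjusted p 0.00138). At an unadjusted edgeR p under 0.05, 0 readers were higher, and DESeq2 called 0 of them higher. Of 15 elongation genes, most of them partners in KMT2A fusions, 14 were tested, 3 rose and 6 fell. Mllt1, which encodes the acetyl reader ENL, rose by 1.24 (SE 0.296, adjusted p 0.00489), and Ell2, an elongation factor known from antibody-secreting B cells, fell by 4.08 (SE 0.754, adjusted p 0.000926), from 7.08 to 14.98 CPM in CD4 to at most 1.37 CPM in lymphoma. In the NSL acetyltransferase complex, which also contains WDR5, 1 of 6 tested genes fell and the other 5 did not pass, with 0 higher at an unadjusted edgeR p under 0.05. That gene was Kansl1, a scaffold subunit, at -0.94 (SE 0.233, adjusted p 0.00589). The median log2 fold changes of these lists were -0.46 for SET domain genes, 0.01 for demethylases, -0.21 for readers, -0.51 for elongation genes and -0.05 for the NSL complex, beside 0.04 over all tested genes.

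Of 15 genes listed as targets of menin or KMT2A, 14 were tested, 3 rose and 10 fell, with a median of -3.11, or -2.82 with the 3 genes at or under the floor set to their bound. Cdk6, a G1 kinase, rose by 4.09 on the log2 scale (SE 0.441, edgeR adjusted p 2.69e-05), with 86.1 ± 5.21 CPM (SD, n = 3) in CD4 and 1468 ± 566 CPM (SD, n = 6) in lymphoma. Hoxa7 had 0 counts in all lymphomas and 17 to 21 counts in the CD4 libraries, which makes it at least 7.41-fold lower. The 12 listed B cell markers, all lower in lymphoma, summed to 1516 to 1862 CPM in CD4 and 9.95 to 16.6 CPM in lymphoma. The part of B cell RNA in the falls of the target list, such as that of Mef2c from 279 ± 21.8 to 1.999 ± 0.963 CPM, was not tested. Mef2c was chosen after its values were seen.

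**Figure D4:**
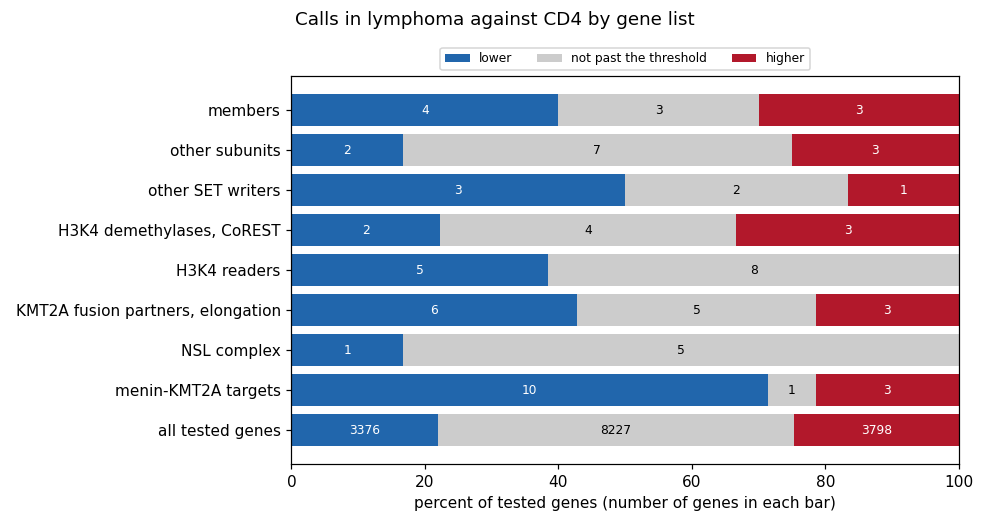
Share of tested genes (horizontal axis, percent, with the number of genes in each bar) that were lower (blue), not past the threshold (grey) or higher (red) in lymphoma by edgeR, for the members, the further lists and all 15401 tested genes. The members have 4 lower and 3 higher of 10, and the menin and KMT2A targets 10 lower and 3 higher of 14, beside 3376 lower and 3798 higher of all genes.

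The genes most like Ash2l, the member with the largest rise, over the 9 libraries in log2 CPM were Cenpm, Dtymk and Lonp1, each at a Pearson r of 0.99. Cenpm encodes a centromere protein, Dtymk makes thymidine nucleotides and Lonp1 is a mitochondrial protease. For Kmt2a, the member with the largest fall, they were Fam193b and Tnrc6b at 0.99 and Irf3 at 0.98. The 9 points fall into the 2 groups of the study and share their library scaling, and the values carry no test.

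**Figure D5:**
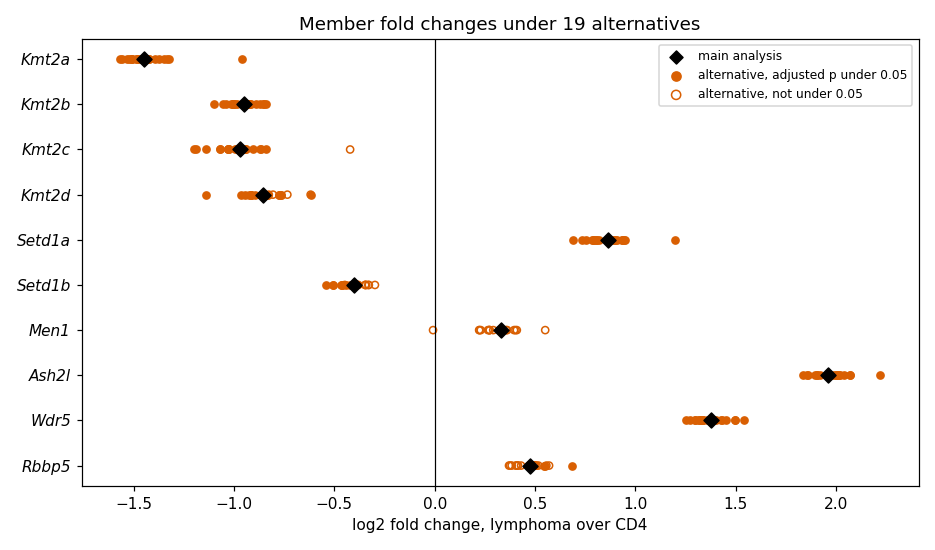
Log2 fold change of lymphoma over CD4 (horizontal axis) for each member in the main analysis (black diamonds) and in 19 alternative fits (circles, filled where the adjusted p was under 0.05). Kmt2a, Kmt2b, Setd1a, Ash2l and Wdr5 have filled circles throughout, while Kmt2c and Kmt2d have open circles in 4 fits each, some of them hidden behind other symbols.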

How the data were processed

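RNA 3′ ends were sequenced in 6 lymphomas and 3 CD4+ T cell preparations. The deposited values are raw read counts per gene for Ensembl identifiers. Per the submitters' processing notes, the tools were FastQC, HISAT2, SAMtools and HTSeq with the builds mm10 and GRCm38, and their versions and the strand setting are not given in the sources used here. Groups came from the labelled cell type. The labels give each library its own number and do not say whether the CD4 preparations came from separate mice, so the p-values may measure technical spread. The 5 summary rows of the table were left out of library sizes. Reads in genes made up 38.7 to 49.1% of the total in lymphoma and 27.8 to 35.0% in CD4, and reads on no feature 16.6 to 22.5% and 30.4 to 33.3%.

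Genes were filtered with filterByExpr (minimum count 10), scaled with TMM and tested with edgeR 4.0.16 (robust quasi-likelihood, R 4.3.3), with Benjamini-Hochberg adjustment over 15401 genes. Standard errors are the absolute log2 fold change over the square root of F. The biological coefficient of variation was 0.462. Paralogue ratios used counts plus 0.5 and an exact permutation of the 84 assignments of libraries (scipy 1.17.1). The edgeR test, but not the permutation, was also run on simulated counts with 200 changed genes. Alternatives used limma 3.58.1 (voom), DESeq2 1.42.0, other scalings and filters, a GC and length trend from GENCODE M21 (99.5% of tested genes matched), and each library left out. A count of 3 was the floor, which equals 0.184 to 0.274 CPM after TMM scaling in lymphoma and 0.275 to 0.359 CPM in CD4 and covers counting error only.

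The members and lists were chosen with earlier results of these data known. Named genes are the members, the further subunits, the gene with the largest called rise and fall in each other list, and the 3 genes most like the members with the largest rise and fall (Pearson r of log2 CPM, mean of at least 3).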

Additional observations from a re-analysis of the deposited data

Results flagged for a closer look

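Values of the 6 lymphomas were screened in 34 sets, which share the same libraries, so 1 unlike library can be flagged in many sets. In 10 sets, a count that carries no test, a library lay far from the other 5, where chance gives about 1 in 20, or 1.7. Lymphoma 53 was that library in 9 of the 10, and 5 of these were members. Its values were 226 CPM for Kmt2d (others 91.8 to 108), 78.8 CPM for Setd1a (54.9 to 61.9), 271 CPM for Setd1b (170 to 206), 175 CPM for Ash2l (112 to 131) and 79.4 CPM for Rbbp5 (54.8 to 60.6). Among further genes of the complexes and of the NSL complex it had 262 CPM of Hcfc1 (169 to 197), 31.8 CPM of Hcfc2 (21.9 to 25.5) and 140 CPM of Kansl1 (69.0 to 92.2), all above the rest, and 34.3 CPM of Ncoa6 (50.8 to 60.7), below them. It also had the fewest gene counts of the lymphomas, 11170704. Lymphoma 53 held 29.4 CPM of Cd8a and 47.6 CPM of Cd8b1, where the other lymphomas held at most 1.53 and 0.735 CPM. Of the proliferation genes, Mki67 was lowest in lymphoma 53 (165 CPM) and Pcna highest (216 CPM). The part of depth, cell type or proliferation in its flagged values was not tested. The remaining flag was Men1, where lymphoma 72 had 44.9 CPM and the others 28.6 to 33.6 CPM.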

How the results depend on the processing

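The calls of Kmt2a, Kmt2b, Setd1a, Ash2l and Wdr5 held under all 19 alternative fits. Leaving out 1 library left 2 to 5 members lower, with 2 both without CD4 2 and without CD4 3, and 3 to 5 further subunits higher, with 5 without lymphoma 53. An adjusted p under 0.01 left 2 members lower, and a rule of at least 2-fold left 2 members higher, 1 member lower and 1 further subunit lower. The Setd1a to Setd1b difference ranged from 1.08 to 1.59 with 1 library left out, and without any 1 CD4 library the smallest exact permutation p possible is 0.0714. That of Kmt2c to Kmt2d ranged from -0.33 to 0.18, positive without lymphoma 53. With the GC and length trend removed Men1 was at -0.0084, Bod1l at 0.24, Ncoa6 at 0.18 and Cxxc1 at -0.55 (edgeR adjusted p 0.00696). Tasp1 was at -0.0066 with upper quartile scaling. Ncoa6 was at 0.022 without a filter and at 0.0045 with lymphomas 34, 70 and 72 averaged, and it ranged from -0.15 to 0.10 with 1 library left out. Cxxc1 ranged from -0.19 to 0.022 in the same way, positive without CD4 2. Cxxc1 at -0.55 kept the sign of the main analysis and passed the threshold. None of the values that reversed their sign passed it, and the cause was not tested. Averaging 34, 70 and 72, and also 56 and 86, ended the calls of Kmt2d (adjusted p 0.17) and Kansl1 (0.0588). No paired analysis was possible because the groups share no replicate numbers. Setd1b passed in 8 of the 19 fits and Rbbp5 in 3.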
